A study of Mus musculus with 2 samples.

Results

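Cytochrome P450 genes outside steroid synthesis were examined in total RNA from mouse adrenal gland. They were all protein-coding genes named by the letters Cyp, a family number, a subfamily letter and a gene number, less the 6 P450 genes of steroid synthesis (Cyp11a1, Cyp11b1, Cyp11b2, Cyp17a1, Cyp19a1 and Cyp21a1). The pattern found 93 genes, and 87 in 33 subfamilies were left, of 22015 nuclear protein-coding genes and 55536 genes in all. No expression value was used to choose them.

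The adrenal glands came from male B6CASTF1/J mice, first-generation hybrids of C57BL/6J and CAST/EiJ, aged 36 days. The series holds 1 group of 2 libraries (biological replicates 2 and 1), with no treatment or contrast. ERCC spike-in RNA was added to 300 ng of input RNA per library. The labels conflict on the animals: the biosample descriptions name Male 04 for replicate 2 and Male 03 for replicate 1, while both library descriptions name Male 03 and both samples carry the same donor entry. The spread between the libraries may therefore be technical or biological, and any difference compares these libraries, not conditions.

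Cytochrome P450 enzymes are heme proteins that insert 1 atom of oxygen into their substrate, with electrons passed on by P450 reductase in the endoplasmic reticulum or by ferredoxin in mitochondria. The adrenal cortex is best known for the P450 enzymes that turn cholesterol into corticosteroids. Most other P450 genes are best known from liver, where they oxidise drugs, toxins, fatty acids and bile acid precursors, and many lie in tandem clusters of close copies.

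Levels are in coding TPM, a length-corrected transcript abundance (TPM) rescaled to the same sum over nuclear protein-coding genes in each library, since these took 23.2% and 31.0% of the deposited TPM in replicates 2 and 1. The P450 genes held 14884 and 12157 of 30169338 and 35511291 gene counts. The adrenal label matched its markers: the 7 cortex genes (Star, Cyp11a1, Hsd3b1, Cyp21a1, Mc2r, Nr5a1 and Scarb1) summed to 34219 and 47307 coding TPM, and the 7 chromaffin cell genes (Th, Dbh, Pnmt, Chga, Chgb, Slc18a1 and Ddc) to 7313 and 4680. Markers of neighbouring tissues were also present and unequal. The 7 pancreas genes summed to 31519 and 0.773 coding TPM (Cpa1, Ins2 and Pnlip at 0 counts in replicate 1), the 12 liver genes to 659 and 69.0, and the 6 brown fat genes to 4284 and 2162.

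Promoters are shown for 6 P450 genes, picked after their values were seen, to set 3 genes that were much higher in replicate 2 (Cyp3a11, Cyp2c70 and Cyp1a2) beside 3 that were well detected in both libraries (Cyp2e1, Cyp1b1 and Cyp4b1). Each is the RefSeq window on GRCm38.p6 from 250 bases before to 50 after the start of transcription, written 5′ to 3′ on the gene's strand. Capitals mark TATAAA (the core letters of a TATA box) and CAAAGTCCA (the letters of an element bound by the liver factor HNF4), searched on both strands, so that TTTATA is TATAAA on the other strand.
Cyp3a11 (chr5:145879805-145880104, minus strand): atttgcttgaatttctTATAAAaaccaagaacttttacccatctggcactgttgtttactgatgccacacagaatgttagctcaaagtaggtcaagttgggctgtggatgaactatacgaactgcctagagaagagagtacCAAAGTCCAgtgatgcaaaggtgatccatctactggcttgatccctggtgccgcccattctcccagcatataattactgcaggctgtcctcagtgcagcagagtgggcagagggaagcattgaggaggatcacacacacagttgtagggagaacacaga
Cyp2c70 (chr19:40187237-40187536, minus strand): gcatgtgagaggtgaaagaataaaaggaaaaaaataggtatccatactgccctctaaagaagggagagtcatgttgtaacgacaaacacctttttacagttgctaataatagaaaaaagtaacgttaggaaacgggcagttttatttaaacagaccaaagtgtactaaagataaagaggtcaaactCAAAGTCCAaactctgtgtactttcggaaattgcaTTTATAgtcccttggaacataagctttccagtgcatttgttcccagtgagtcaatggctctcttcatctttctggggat
Cyp1a2 (chr9:57683606-57683905, minus strand): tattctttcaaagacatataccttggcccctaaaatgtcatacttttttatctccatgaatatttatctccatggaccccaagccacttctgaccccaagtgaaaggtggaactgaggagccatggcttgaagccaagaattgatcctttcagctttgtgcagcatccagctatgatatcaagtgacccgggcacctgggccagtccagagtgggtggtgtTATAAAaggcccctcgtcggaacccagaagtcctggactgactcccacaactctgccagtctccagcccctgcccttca
Cyp2e1 (chr7:140763569-140763868, plus strand): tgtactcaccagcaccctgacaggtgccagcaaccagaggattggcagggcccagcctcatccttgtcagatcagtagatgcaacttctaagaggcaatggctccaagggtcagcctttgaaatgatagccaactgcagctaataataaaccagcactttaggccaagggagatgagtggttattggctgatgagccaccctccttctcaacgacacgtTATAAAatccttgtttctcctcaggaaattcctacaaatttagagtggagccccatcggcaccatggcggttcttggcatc
Cyp1b1 (chr17:79715012-79715311, minus strand): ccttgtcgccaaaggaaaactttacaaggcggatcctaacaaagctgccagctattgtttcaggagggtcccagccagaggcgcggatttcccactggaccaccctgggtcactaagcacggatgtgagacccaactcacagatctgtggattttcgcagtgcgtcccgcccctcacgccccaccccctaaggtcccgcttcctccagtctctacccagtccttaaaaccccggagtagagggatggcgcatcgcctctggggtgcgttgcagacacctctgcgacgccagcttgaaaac
Cyp4b1 (chr4:115647672-115647971, minus strand): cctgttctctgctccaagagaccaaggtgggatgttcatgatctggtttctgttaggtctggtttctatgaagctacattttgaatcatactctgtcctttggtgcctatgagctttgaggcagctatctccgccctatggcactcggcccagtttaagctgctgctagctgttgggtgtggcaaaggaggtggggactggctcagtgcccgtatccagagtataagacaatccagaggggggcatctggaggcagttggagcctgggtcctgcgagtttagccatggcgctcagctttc

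In these windows TATAAA began 234 bases before the start in Cyp3a11, and 29, 29 and 31 bases before it in Cyp2c70, Cyp1a2 and Cyp2e1. CAAAGTCCA began 109 bases before the start in Cyp3a11 and 64 bases before it in Cyp2c70. The windows of Cyp1b1 and Cyp4b1 held neither run of letters.

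Across the P450 genes, 70 of 87 matched a RefSeq window. TATAAA, at any position, was found in 30 of these 70 genes, against 15.7% of 27025 RefSeq genes and 13.6% of 32851 windows. It was found in 14 of the 19 matched genes that reached 1 coding TPM in replicate 2 only, and in 2 of the 16 that reached it in both libraries without a 2-fold difference. TATAAA was also in 12 of the 31 matched genes under 1 coding TPM in both libraries, and in 3 of the 12 with 0 counts. These groups were set by the levels in these same libraries, so the contrast between them is descriptive only. CAAAGTCCA was found in 9 of the 70 (Cyp2c40, Cyp2c65, Cyp2c67, Cyp2c68, Cyp2c69, Cyp2c70, Cyp3a11, Cyp3a16 and Cyp8b1), against 0.555% of RefSeq genes and 0.475% of windows. Of these 9, 6 were among the 19 genes at 1 coding TPM in replicate 2 only, 0 among those 16 and 2 among those 31. Of the 12 matched genes with a called difference, 8 held TATAAA and 2 held CAAAGTCCA. Other elements were also searched on both strands. AAGGTCA, the letters of the element bound by SF-1 (the adrenal factor encoded by Nr5a1), was in 7 of 70 genes, against 5.38% of RefSeq genes and 4.72% of windows. It was in 2 of those 19 genes, in 0 of those 16, and in 3 of the 12 matched genes with a called difference. TNGCGTG, the aryl hydrocarbon receptor element, was in 1 of 70, against 5.84% of genes and 5.07% of windows, and that gene was among the 19. An HNF1 element was in 2 of 70, against 0.470% of genes and 0.399% of windows, and in 0 of both the 19 and the 16. The elements were chosen after the values were seen, close copies in a cluster share sequence, and a match is a run of letters, not evidence of binding.

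The most abundant of the P450 genes in both libraries was Cyp2e1, which oxidises ethanol and small solvents. At 1 coding TPM or more, 25 of the 87 genes were found in both libraries, 21 in replicate 2 only, 0 in replicate 1 only and 41 in neither. Of 22015 nuclear protein-coding genes, 13326 reached that level in both libraries. Their share in 1 library only was not counted, so the 21 and 0 have no such comparison. Summed over the 87 genes the level was 882 coding TPM in replicate 2 and 554 in replicate 1 (718 ± 232, SD, n = 2). Steroidogenic P450 genes summed to 14229 and 18802 coding TPM, 16.1 and 34.0 times that of the 87 genes.

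Cyp2e1 had 353 coding TPM in replicate 2 and 244 in replicate 1, which was 40.0% and 44.0% of the summed P450 level, and ranked 540 among nuclear protein-coding genes by its mean. The lower of its libraries stood above the higher library of every other P450 gene examined. The next by mean level was Cyp4f13, at 66.7 and 56.7 coding TPM. Cyp2d22 (37.0 and 35.4 coding TPM), Cyp1b1 (26.2 and 37.0) and Cyp4b1 (32.7 and 27.3) followed. Both libraries of Cyp2d22 stood above both of Cyp4b1, while Cyp1b1 overlapped each of them, so its place is not resolved. The 10 highest genes made up 72.7% of the summed level in replicate 2 and 87.3% in replicate 1.

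**Figure D1:**
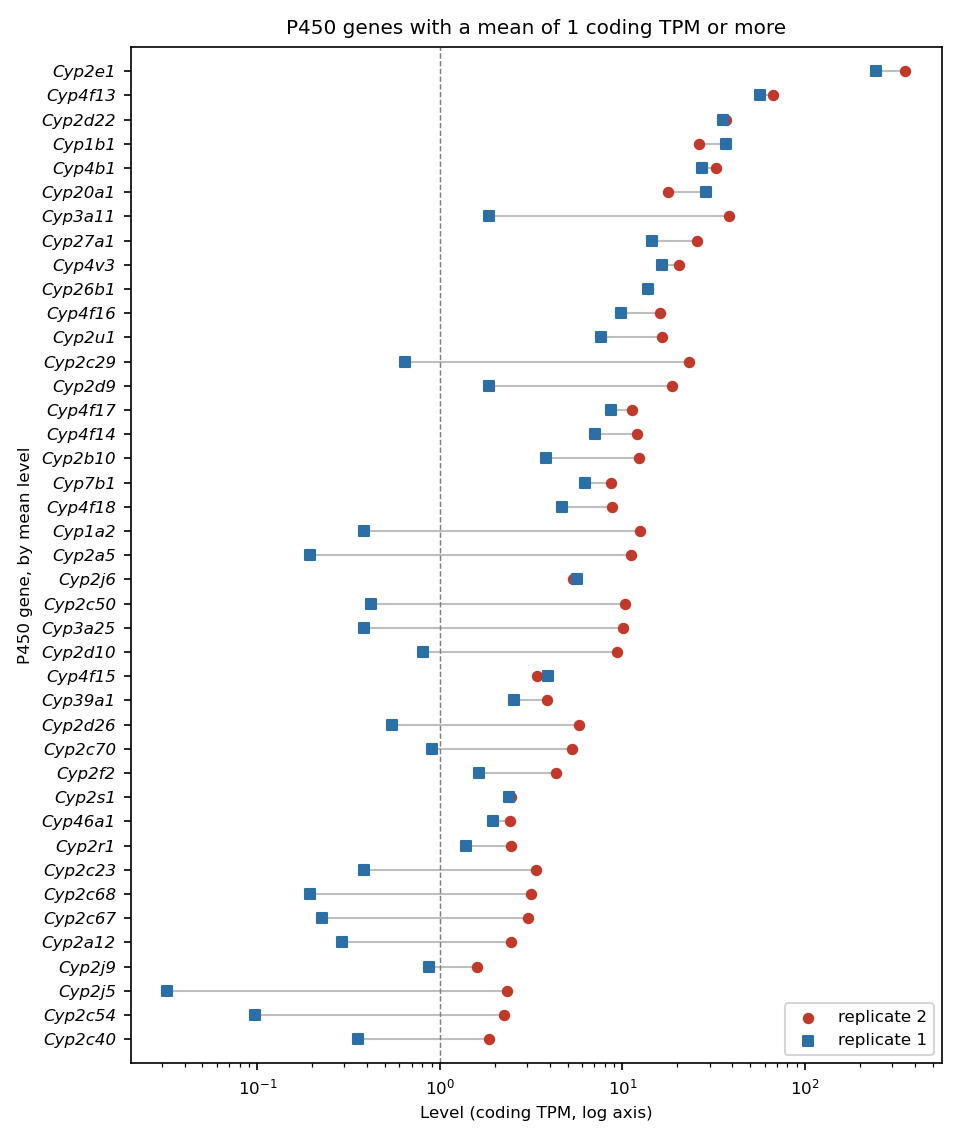
Levels of the 41 P450 genes with a mean of 1 coding TPM or more, on a log axis in coding TPM, with replicate 2 as circles, replicate 1 as squares and a dashed line at 1 coding TPM. Cyp2e1 stands alone at 353 and 244 coding TPM, and a group of genes including Cyp3a11, Cyp2c29 and Cyp2a5 lies far to the left in replicate 1.

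The libraries differed in part of the family. The ratio of replicate 2 over replicate 1 was taken on expected counts scaled to library size. Genes averaging at least 1 CPM (counts scaled to a common sum) were tested, and a gene was called at a 2-fold difference; with 1 library on each side there is no replicate check and no p-value. Of the 87 genes, 32 were tested and 13 called, all 13 higher in replicate 2 (log2 ratio 1.24 to 7.23) and 0 lower. Over all 14779 genes tested, 4.63% were called higher in replicate 2 and 1.97% lower, 6.60% in all. Of 13255 nuclear protein-coding genes tested, 3.27% were called higher. The other 19 tested P450 genes had log2 ratios of -0.70 to 0.94. The count depends on how the genes were admitted: 11 of the 13 reached 1 CPM in replicate 2 only, and of the 21 that reached it in both libraries 2 were called (Cyp3a11 and Cyp2b10), where 2.08% of 14034 genes were called higher under that condition. In bulk tissue, fewer cells of a type and less RNA per cell cannot be told apart.

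Without any minimum, 71 of the 87 genes had a count in at least 1 library, and 62 of them had the higher CPM in replicate 2 and 9 in replicate 1. Over all 26778 genes with a count 54.1% were higher in replicate 2, and 47.0% of 17358 nuclear protein-coding genes with one. The remaining 16 genes had 0 counts in both libraries, which allows up to 0.0994 CPM in replicate 2 and 0.0845 in replicate 1 (3 counts, counting error only). The median log2 ratio was 0.59 over the 32 tested P450 genes, of which 11 were admitted through replicate 2 only, and 0.25 over the 21 that reached 1 CPM in both libraries. It was -0.05 over all tested genes. Scaled by spike-ins instead, the medians were -0.32 over tested P450 genes and -0.89 over all tested genes, since that scaling lowers every log2 ratio by the same amount, so directions here are relative to all genes.

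**Figure D2:**
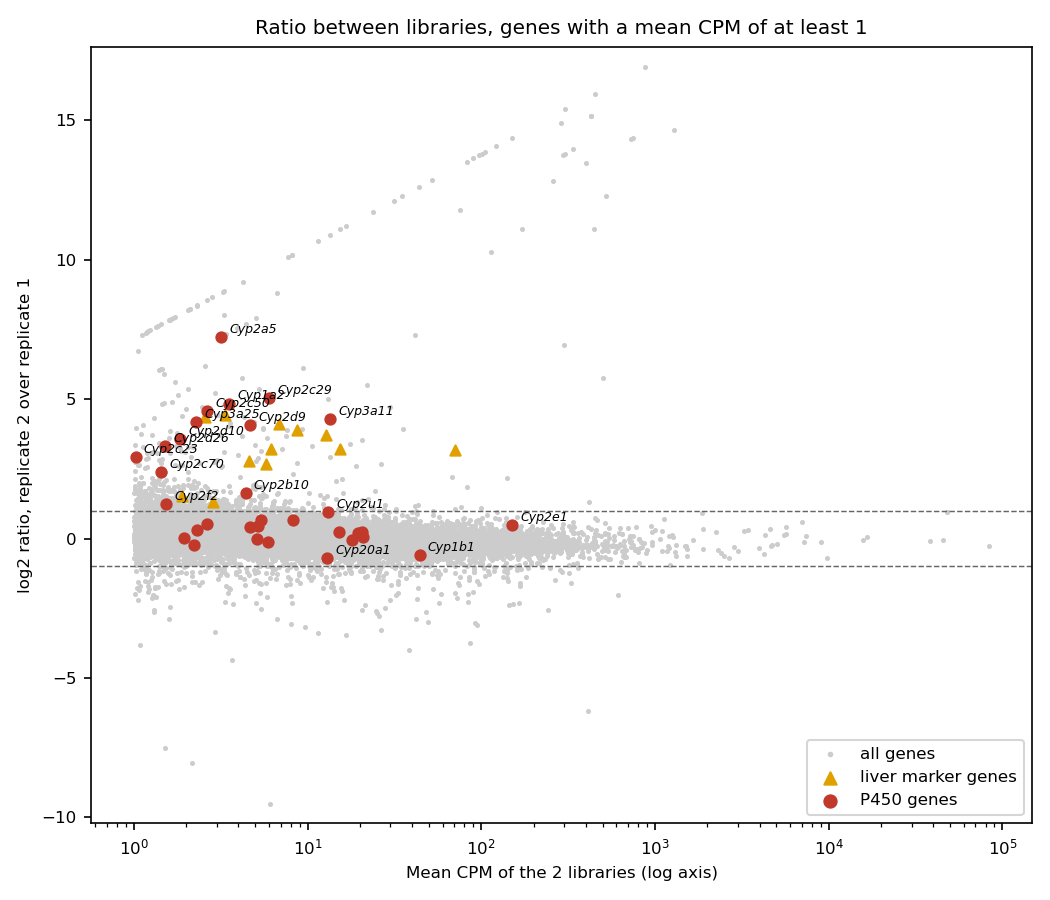
The log2 ratio of replicate 2 over replicate 1 against mean CPM (log axis) for all genes averaging 1 CPM or more (grey), the 32 tested P450 genes (circles) and the 12 liver marker genes (triangles), with dashed lines at the 2-fold difference. The 13 called P450 genes lie between 1.24 and 7.23, and the other 19 between -0.70 and 0.94.

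CYP3A enzymes oxidise a wide range of drugs. Of the 7 CYP3A genes examined, 2 were tested and called higher in replicate 2 (4.63% over all genes tested). Of these, Cyp3a25 was admitted through replicate 2 alone, which favours its call. Cyp3a11 (chr5:145854426-145879964, minus strand, mm10), the main CYP3A drug-oxidising enzyme of mouse liver, had 780 expected counts in replicate 2 and 46 in replicate 1, or 38.5 and 1.87 coding TPM. The ratio was 19.9-fold (exact 95% interval 14.7 to 27.3, counting error only). It was the seventh highest P450 gene by mean, but only replicate 2 placed it there. Cyp3a25 had 10.03 and 0.386 coding TPM, on 131 and 8 counts (19.2-fold, 9.45 to 45.3). Cyp3a16 had 19.8 and 0 counts, at least 7.72-fold higher in replicate 2 with replicate 1 set to 3 counts. Cyp3a13, the CYP3A gene outside the cluster, had 23 and 10 counts. The other 3 genes, Cyp3a44, Cyp3a57 and Cyp3a59, had at most 5.01 counts in either library.

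CYP2C and CYP2J enzymes include the epoxygenases of arachidonic acid, and 23 genes of this kind fitted the naming pattern. Of 15 CYP2C genes, 0 reached 1 coding TPM in both libraries. Only 4 were tested, each admitted through replicate 2 alone, and these 4 were called (4.63% over all genes tested), which their admission favours. Cyp2c29 had 351 and 12 counts, or 23.1 and 0.644 coding TPM (34.2-fold, 19.4 to 66.9). Cyp2c50 had 10.4 and 0.419 coding TPM (25.6-fold, 12.1 to 64.7). Cyp2c70, which makes muricholic acids in mouse liver, had 5.29 and 0.902 coding TPM (5.34-fold, 3.08 to 9.83).

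Cyp2c23 had 3.36 and 0.386 coding TPM (8.05-fold, 3.81 to 19.6). The CYP2C genes that averaged 1 coding TPM or more without being tested were Cyp2c68 at 3.14 and 0.193, Cyp2c67 at 3.06 and 0.225, Cyp2c54 at 2.24 and 0.0966, and Cyp2c40 at 1.85 and 0.354. The 15 CYP2C genes together had 833 counts in replicate 2 and 64.0 in replicate 1. The 8 CYP2J genes together had 250 and 242 counts, of which Cyp2j6 held 170 and 218. Cyp2j6 had 5.38 and 5.67 coding TPM (0.913-fold, 0.743 to 1.12), with overlapping levels. Cyp2j9 had 1.59 and 0.870 coding TPM, and Cyp2j5 had 2.32 and 0.0322, on 47 counts and 1 count (55.0-fold, 9.41 to 2219); its log2 ratio was 5.21 here and 3.05 in the second transcript file.

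The CYP2A, CYP2B, CYP2D, CYP2E, CYP2F and CYP2G subfamilies, mostly enzymes of foreign compounds, hold 20 genes, of which 8 were tested and 6 called higher in replicate 2 (4.63% over all genes tested). Of these 6, Cyp2b10 alone reached 1 CPM in replicate 1. Cyp2d9, a testosterone hydroxylase that is higher in male mouse liver, had 267 and 18.3 counts, or 18.6 and 1.87 coding TPM (17.4-fold, 10.8 to 29.8). Cyp2d10 had 9.29 and 0.805 coding TPM (12.1-fold, 6.30 to 25.9), and Cyp2d26 had 5.77 and 0.548 (10.8-fold, 5.42 to 24.4). These levels set the 3 genes apart from Cyp2d22, a neighbour in the same cluster, whose ratio was 1.04-fold (0.933 to 1.16).

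Cyp2a5, which oxidises coumarin and nicotine, had 191 counts in replicate 2 and 1 in replicate 1, or 11.1 and 0.193 coding TPM (224-fold, 39.7 to 8879). Its interval is wide because replicate 1 held 1 count. Cyp2b10, the classic target of the receptor CAR (Nr1i3), had 12.3 and 3.80 coding TPM (3.10-fold, 2.37 to 4.09). Cyp2f2, known for activating naphthalene in airway cells, was just past the 2-fold line, at 4.35 and 1.64 coding TPM (2.38-fold, 1.53 to 3.75). Cyp2a12 averaged over 1 coding TPM (2.45 and 0.290) and was not tested. Cyp2e1 was not called, at 1.40-fold (1.35 to 1.46). Cyp2g1 had 0 counts in both libraries.

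The 3 genes induced through the aryl hydrocarbon receptor were Cyp1a2, Cyp1b1 and Cyp1a1. Of these, Cyp1a2 and Cyp1b1 were tested. Cyp1a2, admitted through replicate 2 only, was called higher (4.63% over all genes tested). Cyp1a2, which oxidises caffeine, had 207 and 8 counts, or 12.5 and 0.386 coding TPM (30.3-fold, 15.1 to 71.1). Cyp1b1, an oestradiol and hydrocarbon hydroxylase, had 1067 and 1875 counts, or 26.2 and 37.0 coding TPM (0.666-fold, 0.618 to 0.719), and was not called. Cyp1a1 had 24.5 and 2 counts (14.6-fold, 3.65 to 127) and was not tested.

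Retinoic acid clearance was represented by Cyp26b1, with 13.9 and 13.8 coding TPM on 539 and 648 counts (0.974-fold, 0.867 to 1.09). Its close relatives were at the limit of detection, Cyp26a1 with 1 and 0 counts and Cyp26c1 with 3 and 0. The vitamin D genes were low. Cyp2r1, which starts vitamin D activation, had 2.45 and 1.38 coding TPM. Cyp27b1, which completes it, had 3 and 14 counts (0.251-fold, 0.0462 to 0.899) and was untested. Cyp24a1, which breaks the hormone down, had 0 counts in both libraries.

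Of the 6 sterol and bile acid genes, 4 reached 1 coding TPM in both libraries. Cyp27a1, a mitochondrial sterol hydroxylase found in many tissues, had 25.7 and 14.5 coding TPM (1.58-fold, 1.33 to 1.88). Cyp7b1, an oxysterol hydroxylase, had 8.69 and 6.25 coding TPM (1.34-fold, 1.06 to 1.69). Cyp39a1, another oxysterol hydroxylase, had 3.87 and 2.54 coding TPM (1.43-fold, 1.05 to 1.96). None of these 3 was called. Cyp46a1, the cholesterol hydroxylase of neurons, had 2.41 and 1.96 coding TPM on 30 counts in each library. The enzymes of the classic liver pathway had few counts: Cyp7a1, the rate-limiting enzyme of bile acid synthesis, had 11 and 0 counts (at least 4.29-fold higher in replicate 2), and Cyp8b1, which is needed for cholic acid, had 26 and 6.

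The CYP4 genes, fatty acid and leukotriene hydroxylases, had 0 called of 8 tested among 17, which is near the share over all genes (6.60% in either direction). Their 8 tested genes had log2 ratios of -0.25 to 0.67 and reached 1 coding TPM in both libraries. Cyp4f13 had a ratio of 1.14-fold (1.02 to 1.27) and Cyp4b1, which also activates furan toxins, 1.18-fold (1.04 to 1.34). Cyp4v3, the counterpart of human CYP4V2, had 20.3 and 16.5 coding TPM (1.19-fold, 1.06 to 1.32).

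Within CYP4F, Cyp4f17 had 11.3 and 8.60 coding TPM, Cyp4f14 had 12.1 and 7.05, Cyp4f18 had 8.74 and 4.64, and Cyp4f15 had 3.40 and 3.90. Levels and counts of Cyp4f16 went different ways, with 16.1 and 9.82 coding TPM on 154 and 184 counts (0.980-fold, 0.786 to 1.22). The CYP4A genes examined, targets of the fatty acid receptor Ppara in liver, were led by Cyp4a10 with 10.4 and 2 counts. Cyp4x1 had 2 and 0 counts in the gene table and 26.3 and 20.2 in the second transcript file, so its level rests on how reads were assigned.

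Of the remaining genes, Cyp20a1, a P450 with no settled substrate, had 17.7 and 28.6 coding TPM (0.617-fold, 0.534 to 0.711). Cyp2u1, a hydroxylase of long-chain fatty acids, had 16.5 and 7.67 coding TPM (1.92-fold, 1.67 to 2.21), just short of the 2-fold line. Cyp2s1 had 2.45 and 2.38 coding TPM (1.00-fold, 0.695 to 1.44). Cyp2t4 and Cyp2w1 had 0 counts in both libraries.

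Most of the P450 genes lay in tandem clusters. Of the 87 genes, 68 lay in 9 runs (neighbours within 500 kb) and 19 stood alone. At 1 coding TPM in both libraries were 12 of the 19 lone genes and 13 of the 68 in runs. The run of 14 CYP2C genes on chromosome 19 held 0 such genes; 3 of its genes were tested, through replicate 2 only, and called. The CYP4F run on chromosome 17 held 5 such genes of 8, and 0 of its 5 tested genes were called, against 6.60% of all genes called in either direction, so these counts do not set the runs apart. In the CYP2D run on chromosome 15, Cyp2d22 had 37.0 and 35.4 coding TPM at its left end, while Cyp2d9, Cyp2d10 and Cyp2d26 in the same run were called and Cyp2d34 had 0 counts.

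**Figure D3:**
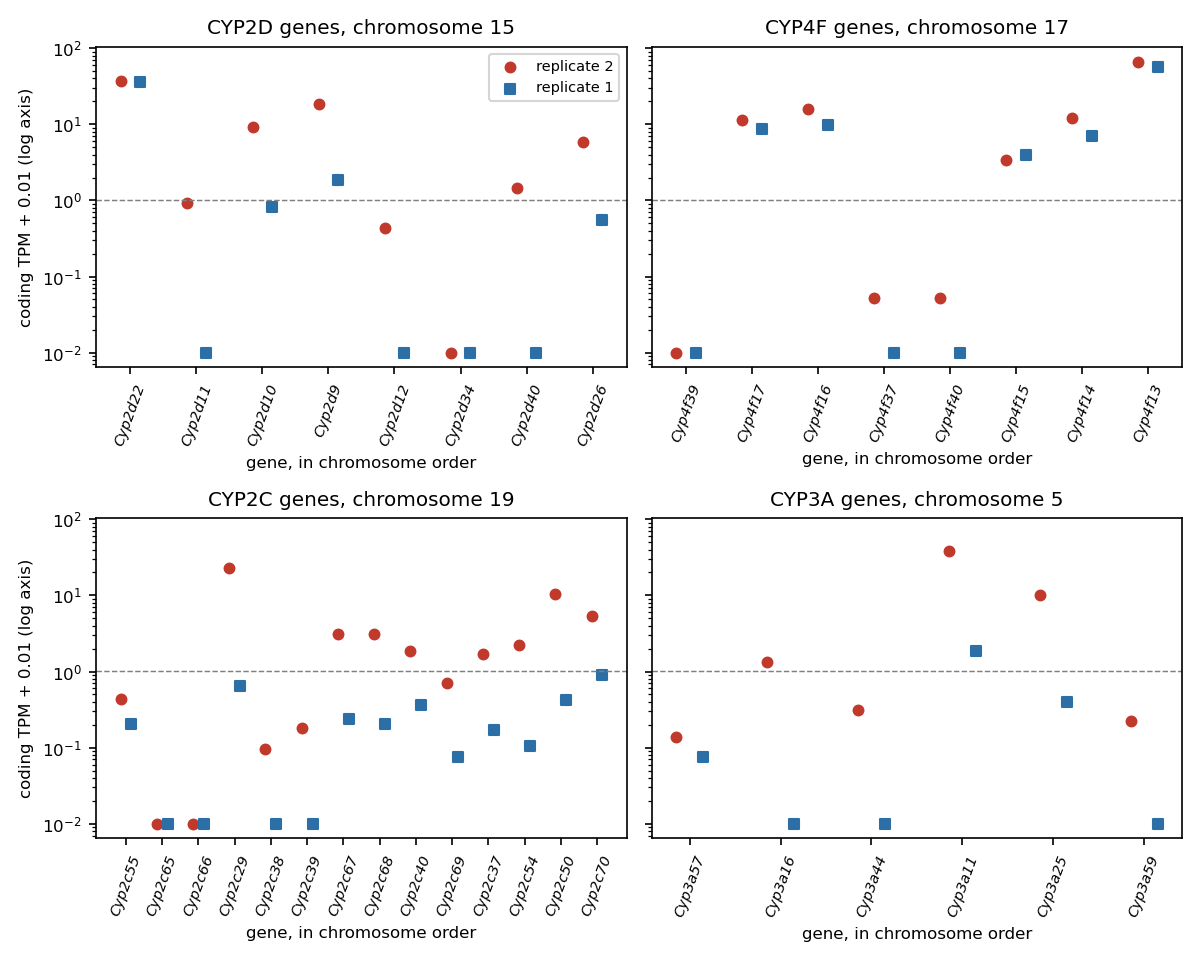
Levels (coding TPM plus 0.01, log axis) of the genes of 4 runs in chromosome order, with replicate 2 as circles left of replicate 1 as squares and a dashed line at 1 coding TPM. In the CYP2D run Cyp2d22 had 37.0 and 35.4 coding TPM beside neighbours that were lower in replicate 1, and the CYP4F run shows 5 genes above the line in both libraries.

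Close copies limit how reads can be assigned. In 30 of the 87 genes the expected counts were not whole (within 0.01) in at least 1 library, 7 of the 13 called among them. Between the longest coding transcripts, 25 genes shared over 10% of their 75-base windows with another gene, 5 of the 13 called among them, and 34 shared none. Cyp2c40 shared 57.1%, Cyp2d10 26.7% (mostly with Cyp2d11) and Cyp2a5 25.5% (mostly with Cyp2a4), so the values of these genes are uncertain as single-gene values. Cyp2c29 shared 0.527% and Cyp3a11 3.66%.

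For some well-detected P450 genes a sizeable share of the level was on transcripts annotated as not coding for protein. Of Cyp4f13's level, 35.4% in replicate 2 and 42.6% in replicate 1 was on protein-coding transcripts, and 58.1% and 52.8% on transcripts with a retained intron. Cyp2d22 had 52.7% and 55.1% on protein-coding transcripts. For Cyp27a1 the share was 60.0% and 69.3%. Cyp4f16 had 16.9% and 64.8%, a difference that stands beside its unequal coding TPM at near equal counts. Cyp2e1 had 98.6% and 98.8%. The shares depend on the quantification: in the second transcript file the protein-coding share was 47.0% and 59.0% for Cyp4f13, 14.3% and 40.3% for Cyp4f16, and 92.3% and 81.5% for Cyp20a1, against 70.8% and 67.3% in the first.

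**Figure D4:**
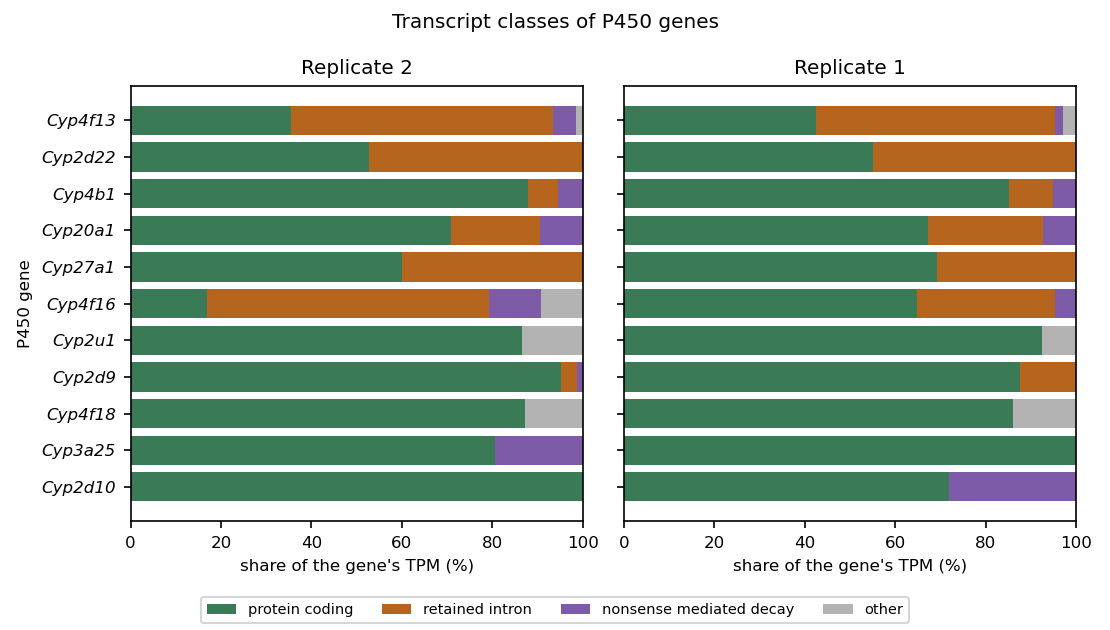
Share of each gene's TPM by transcript class (percent) in replicate 2 (left) and replicate 1 (right), for P450 genes with a mean of 5 coding TPM or more and under 95% on protein-coding transcripts in at least 1 library. Cyp4f13 had 58.1% and 52.8% on retained-intron transcripts, and Cyp4f16 had 16.9% and 64.8% on protein-coding ones.

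Several of the partners that supply electrons to P450 enzymes were plentiful, while Cyb5r2 had 0 counts in both libraries. Of 13 symbols listed, 12 were found and 11 tested, and 0 were called, against 6.60% of all genes tested. Of the 11, 10 had log2 ratios below 0, where the median over all tested genes was -0.05. Por, the reductase that serves the microsomal enzymes, had 250 and 316 coding TPM. Fdx1 and Fdxr, which serve the mitochondrial enzymes, had 2324 and 4011 coding TPM (Fdx1) and 1124 and 1451 (Fdxr). The 3 listed P450 genes outside the naming pattern were not called. Cyp51, of cholesterol synthesis, had 59.7 and 102 coding TPM. Ptgis, prostacyclin synthase, had 25.8 and 30.9, and Tbxas1, thromboxane synthase, 8.69 and 9.24. Symbols with a further letter, such as Cyp3a41a, also fell outside the pattern and were not examined. Of the 5 tested steroidogenic P450 genes, Cyp17a1 was called lower in replicate 2 (4.52 and 10.2 coding TPM) and 4 were not called. Over all genes tested, 1.97% were called lower. Cyp19a1 had 0 counts in both libraries.

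Of 24 listed regulators of P450 genes, 22 were tested, 3 were called higher and 2 lower in replicate 2. Over all genes tested, 4.63% were called higher and 1.97% lower. Hnf4a and Ahrr, called higher, were admitted through replicate 2 only. Hnf4a, a factor that drives liver genes, had 101 and 12 counts, or 3.06 and 0.386 coding TPM (9.86-fold, 5.40 to 19.7). Ppara had 43.5 and 23.3 coding TPM (2.09-fold, 1.89 to 2.30), and Ahrr, the repressor of the aryl hydrocarbon receptor, 2.27-fold (1.47 to 3.57). Nr5a1, which encodes SF-1, had 226 and 515 coding TPM, and Vdr, the vitamin D receptor, 15.7 and 32.4; both were called lower, Vdr at the 2-fold line (0.498-fold). The drug sensors were low: Nr1i3 had 42 and 4 counts and Nr1i2 had 3 and 1.

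Liver markers moved in the same direction as the called P450 genes, and this direction was not particular to liver. All 7 pancreas genes were called higher in replicate 2 (4.63% over all genes tested), each admitted through replicate 2 only, which favours their call. All 6 brown fat genes and all 7 chromaffin cell genes had the higher ratio in replicate 2, while all 7 cortex and all 5 macrophage genes had the lower. All 12 liver genes (Alb, Apoa1, Apoa2, Apoc3, Ttr, Serpina1a, Fgb, Fgg, Ahsg, Tat, Tdo2 and Apoh) were called higher in replicate 2, where 4.63% of all genes tested were. Their log2 ratios were 1.31 to 4.43, none was at 0 in either library, and Alb had 3865 and 495 counts. Apoa2, Tdo2, Tat and Apoh were admitted through replicate 2 only, which favours their call. The 13 called P450 genes summed to 164 and 13.8 coding TPM, 0.249 and 0.201 of the liver sum. These 13 were picked by their ratio between libraries, and 11 were admitted through replicate 2 only. Their lower sum in replicate 1 follows from that choice, so these shares are not a separate comparison with liver. The other 74 P450 genes summed to 718 and 540. Relative to the level of Alb in coding TPM, Cyp3a11 was at 0.174 and 0.0801, Cyp2c29 at 0.104 and 0.0276, and Cyp2d9 at 0.0840 and 0.0801. Cyp1a2 was at 0.0564 and 0.0166, Cyp2a5 at 0.0502 and 0.00829, and Cyp2e1, which was not called, at 1.59 and 10.4. In coding TPM the ratio to Alb was thus near equal between libraries for Cyp2d9 and unequal for the other 5. These 6 genes were picked, and the ratio was not computed for the other called genes, so it does not set Cyp2d9 apart from them. Replicate 1 held 18.3 counts of Cyp2d9 and 1 of Cyp2a5, so their ratios there are imprecise. On counts Cyp2d9 was 17.4-fold higher in replicate 2 (10.8 to 29.8) and Alb 9.14-fold (8.32 to 10.1). The near equality of Cyp2d9 therefore held in coding TPM and not on counts. Of the brown fat genes, 2 of 6 (Ucp1 and Elovl3) were called higher and none was at 0. The 5 white and general fat genes (Adipoq, Plin1, Cfd, Lep and Retn) summed to 2259 and 2505 coding TPM. Of these 5, Lep was called lower in replicate 2 (0.486-fold, where 1.97% of all genes tested were called lower). The other 4 were not called, Plin1 with a higher ratio and the rest with lower ones. The part of liver, pancreas or fat RNA in the P450 levels and differences was not tested.

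**Figure D5:**
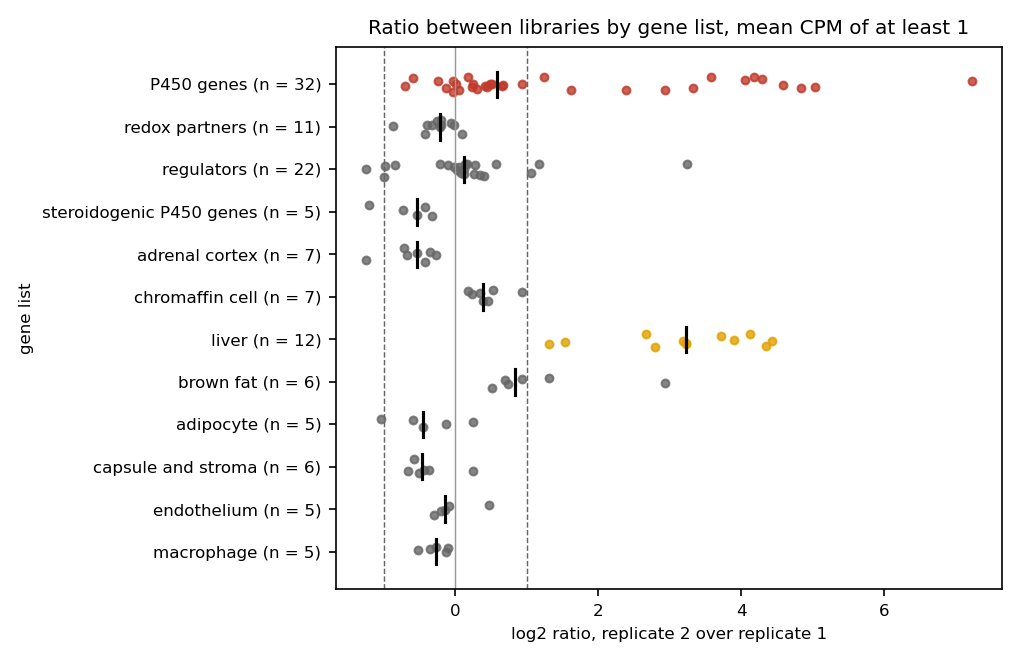
The log2 ratio of replicate 2 over replicate 1 for the tested genes of the lists drawn, 1 point a gene, with the list's median as a black bar and dashed lines at the 2-fold difference. The pancreas list is not drawn. The liver genes, of which Apoa2, Tdo2, Tat and Apoh were admitted through replicate 2 only, lie between 1.31 and 4.43. The 32 P450 genes, 11 of them admitted through replicate 2 only, lie between -0.70 and 7.23.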

How the data were processed

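Total RNA of 2 adrenal libraries was analysed, with groups and replicate numbers from the labels. The gene tables deposited by the authors hold expected counts, TPM and FPKM on mm10 and GENCODE M21, per the text deposited beside them, derived from a transcriptome alignment. The authors also deposited a second transcript file per library, with estimated counts and its own TPM. Programs and read length: not given in the sources used here. Entries that name no gene (tRNA, spike-ins and phiX) took 1.50% and 0.843% of counts in replicates 2 and 1 and stayed out of library sizes.

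Deposited TPM was rescaled here to a fixed sum over 22015 nuclear protein-coding genes (coding TPM). Library sizes were scaled by TMM over 55536 genes (edgeR 4.0.16, R 4.3.3; factors 1.00 and 0.997), 0.5 was added to counts for log2 ratios, and genes averaging at least 1 CPM were called at a 2-fold difference, with an exact 95% interval on rounded counts. Intervals and floors (3 counts, put in place of 0 in replicate 1) reflect counting error alone: without molecular identifiers, reads do not stand for separate molecules. The ratio procedure was tested on simulated data.

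All P450 genes with a mean of 1 coding TPM or more are named, with any other called gene and the highest gene of each subfamily. Genes and lists were chosen with earlier results of these data known. DESeq2 1.42.0 size factors were an alternative scaling; the others are given with their effect in the closing section. Tables and plots were made in Python 3.11.15 (scipy 1.17.1, pandas 2.3.3, numpy 2.4.6, matplotlib 3.10.9).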

Additional observations from a re-analysis of the deposited data

How the results depend on the processing

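Of the 87 P450 genes, 25 reached 1 coding TPM in both libraries, 15 reached 5 coding TPM, and from 25 to 46 reached 1 coding TPM with 1 library left out. The mean summed level of 718 coding TPM was 188 in deposited TPM, and 554 to 882 with 1 library left out. Against 13 genes called at 2-fold, 46 were called with no filter on counts (43 higher and 3 lower in replicate 2). At a mean CPM of at least 5 there were 2, and among genes with whole counts 6. The share over all genes was not computed for these settings. Nor was it computed for the spike-in or other scalings, the pseudocounts, the whole-interval rule or the second transcript file given below. With no filter, 1 count against 0 is past 2-fold (log2 ratio 1.81 for Cyp26a1). Of 2 filters chosen after seeing the data, a CPM of at least 1 in each library and one in replicate 1 alone each gave 2. Scaling by spike-ins lowered every log2 ratio by 0.83 and turned the median of the tested P450 genes to -0.32 (0.59 by TMM). The median over all tested genes was then -0.89, so calls under that scaling cannot be read as particular to the P450 genes. Spike-in scaling called 10 higher and 3 lower: Cyp2b10, Cyp2f2 and Cyp2c23 were no longer called and Cyp1b1, Cyp20a1 and Cyp4f15 were called lower. At 1.5-fold 18 were called (16 higher and 2 lower), where 16.9% of all genes were, and with the whole interval past 2-fold 12. The second transcript file called 14, the 13 among them. DESeq2 size factors, total counts, TMM over coding genes and other pseudocounts each called 13. No paired analysis was possible because the 2 libraries form 1 group. The folds of called genes with few counts in replicate 1 (1 for Cyp2a5 and 7 for Cyp2c50) are imprecise.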
